A study of Mus musculus with 6 samples.

Results

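Interleukin receptors and the JAK-STAT pathway were followed by RNA-seq in mouse osteoclasts grown from bone marrow, the multinucleated cells that resorb bone. The members are 40 genes matched by symbol among the 23204 genes of the deposited count table. They comprise chains of interleukin and interferon receptors and the secreted interleukin-1 antagonist *Il1rn*, the 4 JAK kinases, STAT transcription factors, and inhibitors of the SOCS, CISH and PIAS families. A member was kept where at least 3 libraries reached 1 CPM (counts scaled to library size), which left 39 genes. The member left out was *Il18r1*, a chain of the interleukin-18 receptor, with 1 to 3 counts in every library. Just inside the rule was *Il1r2*, at 0.770, 1.02 and 1.94 CPM in the libraries labelled mutant, against 0.700, 0.774 and 1.60 CPM in the wild type. *Il27ra* was also near it, at 0.840, 1.73 and 1.49 CPM in the libraries labelled mutant, against 1.05, 1.39 and 0.641 CPM in the wild type, as was *Stat4*, described with the STAT genes.

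The cells were grown from bone marrow of C57BL/6 mice. After 2 days with M-CSF, adherent precursors were moved to medium with RANKL and M-CSF, the cytokines that drive osteoclast formation. Of 6 libraries, 3 were labelled Tet2Rank–/–; Tet3aRank+/– (Tet2KOTet3Het in the table) and 3 wild type. The labels do not say what Rank stands for, in which cells or stage the alleles are lost, or whether animals were pooled. TET2 and TET3 oxidise methylated cytosine in DNA, and according to its title the series asks how losing TET enzymes alters osteoclast DNA methylation, which was not analysed here. Libraries carry the first number of their column name. Libraries 2, 3 and 5 were labelled mutant, and libraries 1, 4 and 6 were wild type. Each genotype was labelled with 1 female and 2 male samples, but the columns could not be tied to sex or replicate number.

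Total counts lay between 8794973 and 14267135 per library, with overlapping ranges in the genotypes. Column names of libraries 5 and 6 carried a second number and the others did not, and the leading principal component (68.1% of the variance of log CPM) held these 2 libraries at 1 end. A fit with this naming split as a term is therefore given beside the fit on genotype alone. As a check of the labels, *Tet2* stood at 58.2, 45.5 and 52.3 CPM in the libraries labelled mutant, against 71.7, 80.9 and 79.3 CPM in the wild type, with no overlap, a log2 fold change of -0.57 (SE 0.120) and adjusted p-values of 0.0924 on genotype alone and 0.0400 with the naming term (edgeR) and 0.00635 in DESeq2. *Tet3* stood at 163, 141 and 156 CPM in the libraries labelled mutant, against 145, 121 and 127 CPM in the wild type and was not lower, so the genotype is written as labelled throughout. Counts were summed over whole genes, and the deleted parts are not given in the labels. Osteoclast markers were present in every library, with a summed level of 3061, 8646 and 12664 CPM in the libraries labelled mutant and 18820.2, 15506 and 40433 CPM in the wild type over 12 genes. Macrophage markers summed to 29717, 23410.2 and 23816 CPM in the libraries labelled mutant and 21259, 16132 and 12647 CPM in the wild type, also over 12 genes. *Lyz2* gave 62.2% of this sum and was not called (adjusted p 0.131 with the naming term, edgeR, and 0.0855 in DESeq2). With the naming term, 9 osteoclast markers (*Acp5*, *Ctsk*, *Nfatc1*, *Calcr*, *Atp6v0d2*, *Oscar*, *Tnfrsf11a*, *Itgb3* and *Src*) fell and 5 macrophage markers (*Mrc1*, *C1qa*, *C1qb*, *C1qc* and *Mertk*) rose (edgeR). Log2 fold changes on genotype alone lay above 0 for 10 macrophage markers and below 0 for 2, *Cd68* at -0.15 and *Itgam* at -0.04. On genotype alone 0 markers of either list passed, while 7 osteoclast markers were lower and 7 macrophage markers higher at an unadjusted p under 0.05 (edgeR). DESeq2 called the 5 macrophage markers that rose with the naming term, and also *Adgre1* and *Fcgr1* (adjusted p 0.0217 and 0.0252). Of the 9 osteoclast markers, it called *Nfatc1*, *Atp6v0d2*, *Oscar* and *Src*. In these bulk samples, a change in the number of cells of a type and a change in RNA per cell cannot be told apart. The part of this shift in the differences given next was not tested.

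Interleukins and interferons act through receptor chains that pair on the cell surface. Most of these chains carry no enzyme of their own and bind a Janus kinase (JAK), which phosphorylates the receptor and then a STAT protein; the STAT moves to the nucleus and activates genes. SOCS proteins and CISH are induced by this signal and restrain it, whereas receptors of the interleukin-1, interleukin-18 and interleukin-17 families signal through adaptor proteins to NF-kB instead. In the osteoclast lineage, interleukin-1 is known to promote bone resorption, while interferon gamma, interleukin-4 and interleukin-10 are known to restrain osteoclast formation.

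Most receptor and STAT genes stood higher in the libraries labelled mutant. *Il21r* had a mean level 3.72-fold and *Il4ra* 2.08-fold that of the wild type in the fitted model, and *Stat4* was barely detected in the wild type. The log2 fold change lay above 0 for 30 of the 39 members (median 0.38), against 46.8% of all 14040 genes tested (median -0.03). None of the differences passed an adjusted p of 0.05 in edgeR on genotype alone, where 0 members rose and 0 fell and where 0.0499% of all genes were called higher and 0.0214% lower. At an unadjusted p under 0.05, 13 members were higher and 0 lower, against 7.19% and 12.4% of all genes. With the naming split as a term, 6 members rose and 0 fell, against 3.08% and 5.6% of all genes. The 6 were *Il21r*, *Il4ra*, *Il10ra*, *Ifngr1*, *Ifnar2* and *Stat4*. *Stat4* reached 1 CPM only in the libraries labelled mutant, so it could enter the count in that direction alone, and 5 members rose besides it. DESeq2 called 9 higher and 0 lower, against 4.72% and 5.44% of all genes; 5 of the 9 were among the 6, and it gave no adjusted p for *Stat4*. The libraries of the genotypes did not overlap for 17 members that were higher and 2 that were lower, against 9.91% and 16.9% of all genes. *Stat4* is also counted among the 30, the 13 and the 17, where the same limit holds for it.

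**Figure D1:**
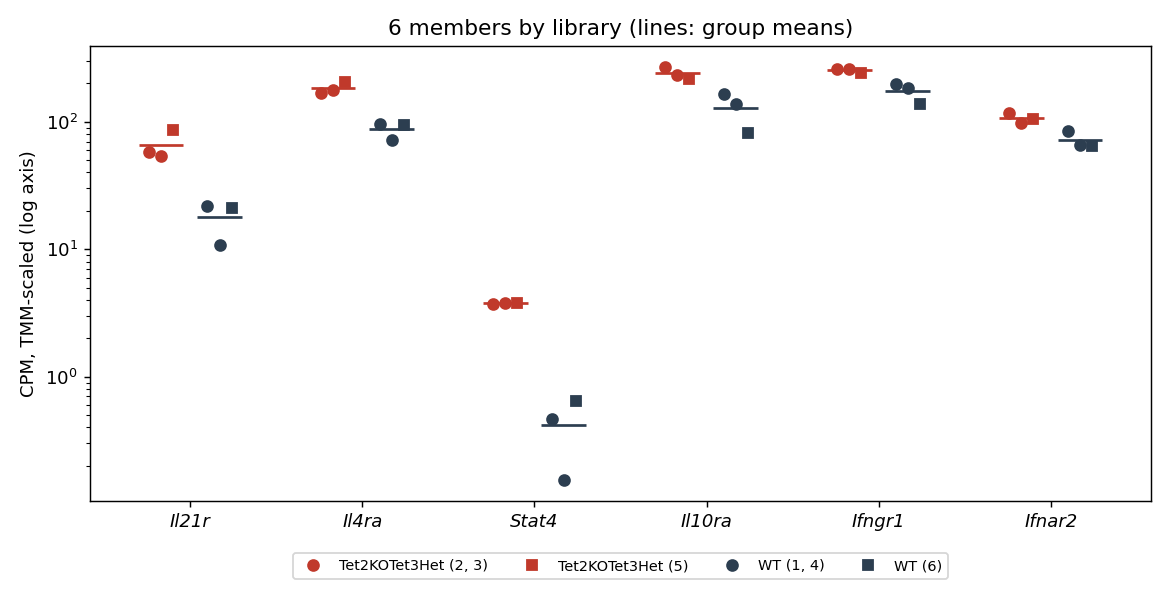
Level in TMM-scaled CPM (log axis) of the 6 members that rose in the fit with the naming term, by library; red points are libraries labelled mutant, dark points wild type, squares the libraries with a second number in their name, and lines group means. For each of the 6 genes every library labelled mutant lies above every wild-type library, and the gap is widest for Stat4, with group means of 3.76 and 0.421 CPM.

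*Il21r* encodes the private chain of the receptor for interleukin-21, a cytokine of activated T cells, and *Il4ra* the chain shared by the receptors for interleukin-4 and interleukin-13. *Il21r* (ENSMUSG00000030745, chromosome 7, 125603429 to 125633570, + strand, mm10) stood at 58.4, 53.7 and 86.0 CPM in the libraries labelled mutant, against 21.8, 10.8 and 20.9 CPM in the wild type. Library 5 was highest and wild-type library 4 lowest, and the lowest library labelled mutant had over 2 times the level of the highest wild-type library. The log2 fold change was 1.89 (SE 0.318), with an adjusted p of 0.0764 on genotype alone and 0.0159 with the naming term (edgeR). *Il4ra* (ENSMUSG00000030748, chromosome 7, 125552120 to 125579474, + strand) stood at 167, 177 and 203 CPM in the libraries labelled mutant, against 96.7, 72.2 and 94.8 CPM in the wild type. The groups lay well apart and library 5 was again highest. Its log2 fold change was 1.05 (SE 0.153), with adjusted p-values of 0.0589 and 0.0151 (edgeR). Both differences were of like size on each side of the naming split. The log2 ratio of *Il21r* was 1.80 across libraries 1 to 4 and 2.03 for library 5 over library 6, and that of *Il4ra* was 1.03 across libraries 1 to 4 and 1.10 for library 5 over library 6. Per length, as RPKM (CPM per kilobase of merged exons), *Il21r* stood at 19.9 ± 5.26 RPKM in the libraries labelled mutant and 5.37 ± 1.85 RPKM in the wild type. *Il4ra* stood at 30.4 ± 3.13 RPKM in the libraries labelled mutant and 14.6 ± 2.27 RPKM in the wild type (SD, n = 3 each), so *Il21r* had the lower level in each genotype.

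*Il4ra* and *Il21r* are neighbours on the same strand, 23954 bases apart with 0 other genes of the table between them. The genes on either side had smaller differences. *Nsmce1*, a subunit gene of the SMC5-SMC6 complex, stood at 19.1, 17.6 and 18.9 CPM in the libraries labelled mutant, against 16.4, 14.6 and 17.5 CPM in the wild type, a log2 fold change of 0.20 (SE 0.139). *Gtf3c1*, a subunit gene of transcription factor IIIC, stood at 62.9, 69.0 and 82.2 CPM in the libraries labelled mutant, against 64.7, 68.9 and 71.9 CPM in the wild type, a log2 fold change of 0.06 (SE 0.124). Adjusted p-values of these 2 genes were 0.515 and 0.892 on genotype alone and 0.476 and 0.834 with the naming term (edgeR).

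**Figure D2:**
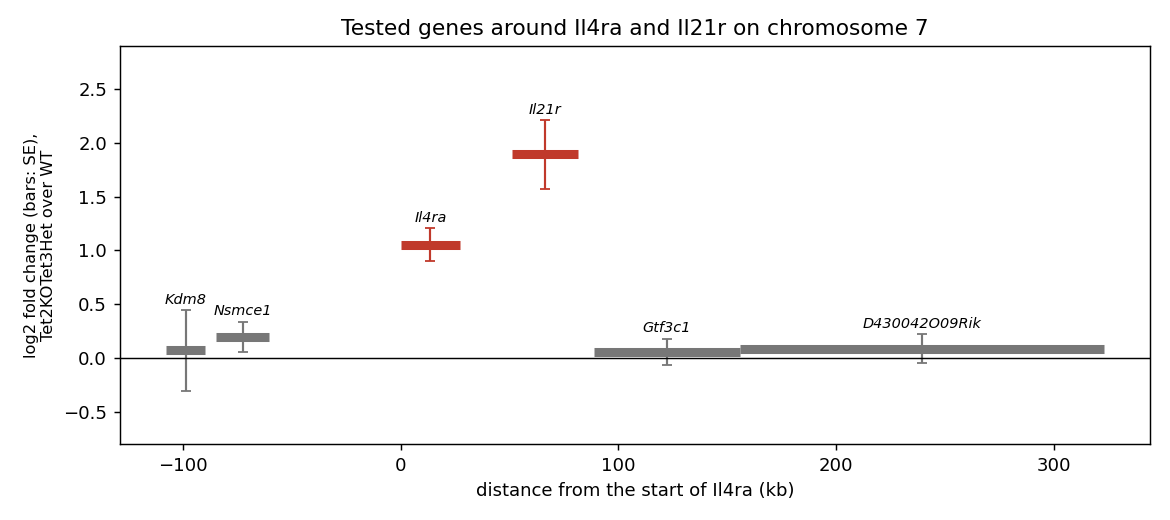
Log2 fold change (Tet2KOTet3Het over WT, vertical axis, bars SE) of tested genes on chromosome 7 against distance from the start of Il4ra in kb (horizontal axis); each thick line spans a gene. Il4ra at 1.05 and Il21r at 1.89 stand above the 4 flanking genes, which lie between 0.06 and 0.20.

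Promoter windows of this neighbouring pair are shown because both genes rose with the naming term and because CG dinucleotides, in capitals, are the sites at which DNA methylation mainly occurs in mammals. Sequences are from RefSeq on GRCm38.p6, the assembly behind mm10, from 250 bases before to 50 after an annotated start. The *Il21r* window (chr7:125603179-125603478, + strand) holds 7 CG dinucleotides and the *Il4ra* window (chr7:125552021-125552320, + strand) holds 25. The median over 32851 such windows was 7, with quartiles of 3 and 20, so *Il21r* lies at the median and *Il4ra* above the upper quartile.
Il21r promoter: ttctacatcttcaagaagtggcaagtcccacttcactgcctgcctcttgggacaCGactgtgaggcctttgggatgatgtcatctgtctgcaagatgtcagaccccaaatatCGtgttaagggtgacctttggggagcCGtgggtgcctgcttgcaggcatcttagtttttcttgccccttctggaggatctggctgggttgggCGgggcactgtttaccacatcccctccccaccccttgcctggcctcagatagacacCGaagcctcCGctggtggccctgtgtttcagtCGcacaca
Il4ra promoter: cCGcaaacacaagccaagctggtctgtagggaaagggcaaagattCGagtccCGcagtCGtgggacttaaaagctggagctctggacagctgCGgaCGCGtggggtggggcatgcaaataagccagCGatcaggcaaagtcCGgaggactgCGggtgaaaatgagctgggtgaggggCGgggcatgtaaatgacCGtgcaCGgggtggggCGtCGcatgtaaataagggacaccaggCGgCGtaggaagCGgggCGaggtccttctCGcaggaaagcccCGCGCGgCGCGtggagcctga

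The other receptors of the interleukin-2, interleukin-3 and interleukin-4 families gave no call. *Il2rg*, the common gamma chain with which IL21R pairs, stood at 91.4, 85.9 and 80.6 CPM in the libraries labelled mutant, against 71.4, 66.5 and 34.4 CPM in the wild type. The groups did not overlap, but library 6 lay far below the other wild-type libraries. Its log2 fold change was 0.58 (SE 0.267), with adjusted p-values of 0.299 and 0.0779 with the naming term (edgeR). *Il7r*, the receptor chain for interleukin-7, varied more within a genotype, at 28.3, 12.3 and 39.97 CPM in the libraries labelled mutant, against 14.6, 7.43 and 16.4 CPM in the wild type; library 3 lay below wild-type libraries 1 and 6. The fitted log2 fold change of 1.08 (SE 0.479) was as large as that of *Il4ra* but had the wider error, with adjusted p-values of 0.287 and 0.135 with the naming term (edgeR). *Il3ra*, the private chain for interleukin-3, averaged 37.7 ± 5.11 CPM in the libraries labelled mutant and 30.3 ± 2.72 CPM in the wild type (SD, n = 3 each) without overlap. *Il13ra1*, a chain for interleukin-13, averaged 30.3 ± 3.19 CPM in the libraries labelled mutant and 29.0 ± 0.977 CPM in the wild type (SD, n = 3 each). *Il15ra*, the chain that presents interleukin-15, was the only one of these 7 receptors with a log2 fold change below 0, at 8.61, 7.54 and 7.74 CPM in the libraries labelled mutant, against 10.1, 9.06 and 11.1 CPM in the wild type. Its libraries did not overlap, and its adjusted p was 0.423 (edgeR).

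Of 6 receptor genes of the interleukin-10 and interferon families, 5 had a log2 fold change above 0 and libraries that did not overlap. Over all genes, 9.91% were higher without overlap. With the naming term 3 of the 6 rose, against 3.08% of all genes, and 0 passed on genotype alone (edgeR). *Il10ra* (ENSMUSG00000032089, chromosome 9, 45253837 to 45269149, - strand), the ligand-binding chain for interleukin-10, stood at 271, 232 and 218 CPM in the libraries labelled mutant, against 166, 138 and 80.9 CPM in the wild type. The group ranges lay apart, with library 6 lowest by a wide margin. The log2 fold change was 0.91 (SE 0.266), with adjusted p-values of 0.143 and 0.0275 with the naming term (edgeR); it was 0.73 across libraries 1 to 4 and 1.43 for library 5 over library 6. *Ifngr1* (ENSMUSG00000020009, chromosome 10, 19591949 to 19610229, + strand), the ligand-binding chain for interferon gamma, stood at 259.6, 258 and 241 CPM in the libraries labelled mutant, against 197, 185 and 137 CPM in the wild type. The libraries labelled mutant were close to each other, and library 6 was again lowest. Its log2 fold change was 0.55 (SE 0.158), with adjusted p-values of 0.138 and 0.0378 (edgeR). The partner chain *Ifngr2* overlapped between the genotypes, at 156, 163 and 165 CPM in the libraries labelled mutant, against 183, 152 and 183 CPM in the wild type, with a log2 fold change of -0.10 (SE 0.115) and an adjusted p of 0.741 (edgeR). The difference between the changes of the 2 chains was not tested.

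*Ifnar2* (ENSMUSG00000022971, chromosome 16, 91372783 to 91405589, + strand) and *Ifnar1* encode the pair of chains that bind type I interferons, and *Il10rb* is shared by the interleukin-10 and lambda interferon receptors. *Ifnar2* stood at 117, 97.6 and 104 CPM in the libraries labelled mutant, against 83.9, 66.2 and 65.0 CPM in the wild type. Every library labelled mutant was above the highest wild-type library, which was library 1. The log2 fold change was 0.57 (SE 0.137), with adjusted p-values of 0.108 and 0.0468 with the naming term (edgeR). *Ifnar1* stood at 155, 162 and 175 CPM in the libraries labelled mutant, against 145, 132 and 131 CPM in the wild type and *Il10rb* at 224, 196 and 198 CPM in the libraries labelled mutant, against 187, 155 and 147 CPM in the wild type. Both had libraries that did not overlap by a narrow margin, with log2 fold changes of 0.27 (SE 0.104) and 0.34 (SE 0.133) and adjusted p-values with the naming term of 0.177 and 0.143 (edgeR). These 3 genes and *Ifngr2* lie in a run on chromosome 16, on 1 strand, in the order *Ifnar2*, *Il10rb*, *Ifnar1*, *Ifngr2*. *Il10rb* begins 574 bases after the end of *Ifnar2*. The next gaps are wider and each holds 1 other gene, 59403 bases from *Il10rb* to *Ifnar1* and 39630 bases from *Ifnar1* to *Ifngr2*. Along this order the log2 fold changes were 0.57, 0.34, 0.27 and -0.10.

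The *Ifnar2* promoter window (chr16:91372533-91372832, + strand) is shown because, among the 6 members that rose with the naming term, it is the single window found to hold the STAT-type palindrome TTCNNNGAA, in capitals. This motif reads the same on both strands. It was found in 8.3% of all windows, and in 7 of the 43 windows of the 33 members matched in the RefSeq table, those of *Il1r2*, *Il18r1*, *Il7r*, *Ifnar1*, *Ifnar2*, *Cish* and *Socs3*. *Ifnar1* is among the members called by DESeq2, and *Il10ra* was not matched in that table. A match is a description of the letters, not of binding.
Ifnar2 promoter: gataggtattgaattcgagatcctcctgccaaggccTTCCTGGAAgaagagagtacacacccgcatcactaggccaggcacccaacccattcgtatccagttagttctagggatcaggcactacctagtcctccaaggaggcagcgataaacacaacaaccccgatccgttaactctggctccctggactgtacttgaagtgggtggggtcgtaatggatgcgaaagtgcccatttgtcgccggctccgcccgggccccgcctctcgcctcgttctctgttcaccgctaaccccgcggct

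Per length, the highest level among all members was that of *Ifngr1*, at 88.9 ± 3.62 RPKM in the libraries labelled mutant and 60.7 ± 11.2 RPKM in the wild type (SD, n = 3 each). *Il10ra* followed in the libraries labelled mutant, at 68.7 ± 7.79 RPKM in the libraries labelled mutant and 36.7 ± 12.4 RPKM in the wild type. Next came *Il10rb* at 54.1 ± 4.21 RPKM in the libraries labelled mutant and 42.8 ± 5.51 RPKM in the wild type. *Stat6* stood at 51.0 ± 4.84 RPKM in the libraries labelled mutant and 38.2 ± 3.55 RPKM in the wild type, which differed from *Il10rb* by less than the SD of either in the libraries labelled mutant. At the low end of the tested members, *Il27ra*, *Il1r2*, *Il18rap*, *Cish*, *Socs1* and *Stat4* averaged under 1 RPKM in both genotypes.

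The interleukin-6 and interleukin-12 family gave no call. *Il6st*, the gp130 chain shared by interleukin-6, leukaemia inhibitory factor and oncostatin M, stood at 180.1, 158 and 210.2 CPM in the libraries labelled mutant, against 160.4, 158 and 163 CPM in the wild type. The genotypes overlapped, and its log2 fold change was 0.19 (SE 0.131). *Il6ra*, the interleukin-6 binding chain, stood at 291, 214 and 180.3 CPM in the libraries labelled mutant, against 213, 168 and 104 CPM in the wild type; library 2 was highest and library 6 lowest, and library 5 lay below wild-type library 1. Its adjusted p was 0.432, and 0.107 with the naming term (edgeR). *Il12rb1*, which receptors for interleukin-12 and interleukin-23 share, ran from 1.82 CPM in library 2 to 13.4 CPM in library 6. *Il27ra*, a receptor chain for interleukin-27, had 8 to 20 counts per library. *Il11ra1*, the interleukin-11 receptor chain, averaged 16.7 ± 1.502 CPM in the libraries labelled mutant and 18.4 ± 1.56 CPM in the wild type (SD, n = 3 each); it has near-identical copies in the mouse genome and its annotated span overlaps other expressed genes, so its count is uncertain.

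Receptors of the interleukin-1, interleukin-18 and interleukin-17 families also gave no call. *Il1rn*, the secreted antagonist of interleukin-1, stood at 23.0, 36.9 and 82.0 CPM in the libraries labelled mutant, against 25.9, 32.4 and 48.2 CPM in the wild type. Libraries 5 and 6 were the highest of their genotypes, and the others overlapped; without library 5 the log2 fold change was -0.26, against 0.41 with all libraries. *Il1r1*, the signalling receptor for interleukin-1, averaged 9.55 ± 1.43 CPM in the libraries labelled mutant and 10.2 ± 2.07 CPM in the wild type, and its partner *Il1rap* 15.1 ± 0.557 CPM in the libraries labelled mutant and 11.4 ± 3.56 CPM in the wild type (SD, n = 3 each). The decoy receptor *Il1r2* had between 6 and 26 counts per library. *Il18rap*, the accessory chain for interleukin-18, stood at 3.71, 3.46 and 4.61 CPM in the libraries labelled mutant, against 0.817, 2.01 and 3.21 CPM in the wild type; the groups did not overlap, from 7 to 62 counts per library, and its adjusted p was 0.404 (edgeR). *Il17ra*, the shared chain of interleukin-17 receptors, stood at 80.5, 56.8 and 59.5 CPM in the libraries labelled mutant, against 52.5, 50.9 and 42.4 CPM in the wild type. The groups lay apart, with library 2 well above the rest, a log2 fold change of 0.43 (SE 0.167) and adjusted p-values of 0.222 and 0.115 with the naming term (edgeR).

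**Figure D3:**
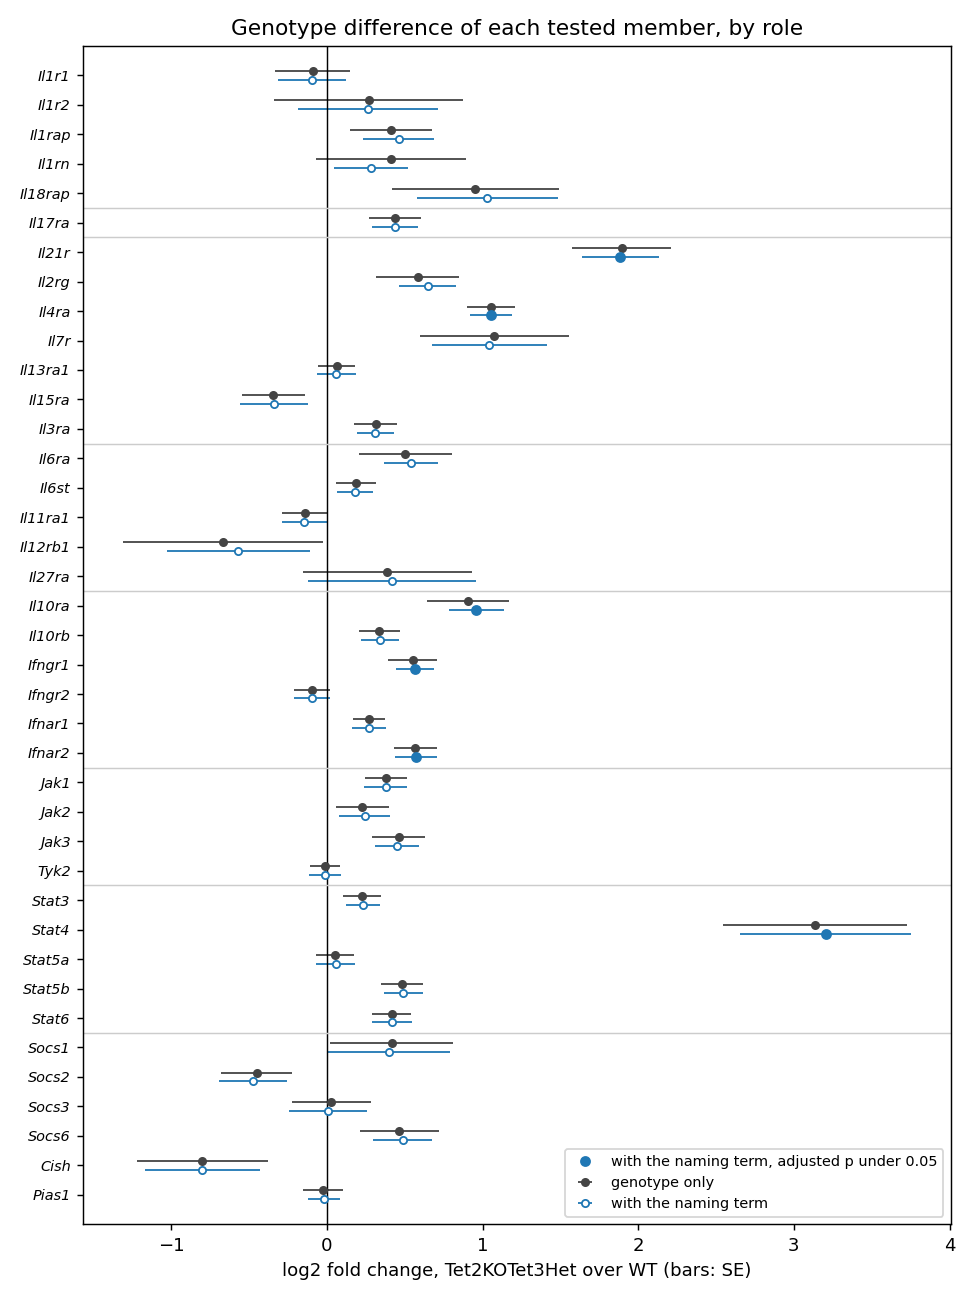
Log2 fold change (Tet2KOTet3Het over WT, horizontal axis, bars SE) of the 39 tested members, grouped by role; dark points are the fit on genotype alone and blue points the fit with the naming term, with blue points filled where the adjusted p is under 0.05. Stat4, Il21r and Il4ra lie farthest right among the filled points, at 3.20, 1.88 and 1.05, and Il12rb1 and Cish farthest left, with no call.

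The JAK kinases gave no call in edgeR. *Jak1*, which serves most of the receptors above, stood at 335, 305 and 364 CPM in the libraries labelled mutant, against 292, 235 and 246 CPM in the wild type. The groups did not overlap, and the log2 fold change was 0.38 (SE 0.134), with adjusted p-values of 0.193 in edgeR, 0.143 with the naming term and 0.0291 in DESeq2. *Jak3*, the kinase bound by the common gamma chain, stood at 35.1, 42.4 and 28.7 CPM in the libraries labelled mutant, against 28.9, 24.4 and 23.9 CPM in the wild type. Library 3 was highest, and library 5 lay just below wild-type library 1. Its log2 fold change was 0.46 (SE 0.172) and its adjusted p 0.211 (edgeR). *Jak2*, the kinase of the interleukin-3 and interferon gamma receptors, stood at 51.0, 39.1 and 48.3 CPM in the libraries labelled mutant, against 44.0, 42.7 and 31.7 CPM in the wild type, with overlapping groups. *Tyk2*, a kinase of the type I interferon, interleukin-10 and interleukin-12 receptors, stood at 95.9, 94.5 and 98.9 CPM in the libraries labelled mutant, against 104, 88.7 and 98.9 CPM in the wild type. Its log2 fold change was -0.01 (SE 0.0984), and 0.02 with DESeq2 size factors.

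Among the STAT genes, *Stat4*, the factor of interleukin-12 signalling in lymphocytes, had the largest ratio of all members. *Stat4* (ENSMUSG00000062939, chromosome 1, 51987148 to 52107189, + strand) had 53, 37 and 51 counts in libraries 2, 3 and 5, labelled mutant, against 4, 2 and 8 counts in wild-type libraries 1, 4 and 6. This is 3.71, 3.77 and 3.80 CPM in the libraries labelled mutant, against 0.467, 0.155 and 0.641 CPM in the wild type. The libraries labelled mutant were nearly equal and far above each wild-type library, but all were low. It passed the filter of 1 CPM only through the libraries labelled mutant. Summed over libraries and scaled, 141 against 14 counts gave a ratio of 9.11, with an exact 95% interval of 5.26 to 17.1 that covers counting error only. The fitted log2 fold change was 3.14 (SE 0.590), with adjusted p-values of 0.0786 and 0.0232 with the naming term (edgeR). The log2 fold change was 3.61 across libraries 1 to 4 and 2.39 for library 5 over library 6.

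*Stat4* is best known from T and NK cells, so their markers were read in the same libraries. *Cd3d*, *Cd3e* and *Cd3g*, which encode the T cell receptor complex, had at most 0.0802 CPM in any library, and 10 of 13 markers averaged under 1 CPM. *Trac*, the constant part of the T cell receptor alpha chain, stood at 1.19, 2.24 and 3.65 CPM in the libraries labelled mutant, against 2.57, 3.72 and 5.93 CPM in the wild type. The summed level of the list was 297, 246 and 288 CPM in the libraries labelled mutant and 237, 123 and 87.2 CPM in the wild type, mostly *Cd4* (54.9% of the sum) and *Cd28*. *Cd28* stood at 124, 87.9 and 161 CPM in the libraries labelled mutant, against 80.1, 48.1 and 46.7 CPM in the wild type, without overlap, with adjusted p-values of 0.130 on genotype alone and 0.0694 with the naming term (edgeR) and 0.00582 in DESeq2. *Lck*, a T cell kinase too low to be tested, stood at 1.61, 1.32 and 0.447 CPM in the libraries labelled mutant, against 0.233, 0.465 and 0.160 CPM in the wild type. *Cd4* stood at 170, 154 and 122 CPM in the libraries labelled mutant, against 153, 70.2 and 33.8 CPM in the wild type, with overlap. Thus *Cd4*, *Cd28* and *Lck* were higher and *Trac* lower on average in the libraries labelled mutant. The NK and cytotoxic cell markers *Klrb1c*, *Gzmb* and *Prf1* had at most 0.408 CPM in any library. B cell markers summed to 169, 148 and 153 CPM in the libraries labelled mutant and 211, 169.7 and 115 CPM in the wild type, with 75.3% of the sum from *Blnk*. The other 5 tested B cell markers had log2 fold changes above 0. Of these, *Cd79b* stood at 12.3, 9.07 and 9.45 CPM in the libraries labelled mutant, against 3.50, 6.50 and 3.13 CPM in the wild type, without overlap, with adjusted p-values of 0.143 on genotype alone and 0.0648 with the naming term (edgeR) and 0.0239 in DESeq2. *Cd22* stood at 20.5, 23.9 and 32.8 CPM in the libraries labelled mutant, against 22.0, 13.3 and 12.7 CPM in the wild type, with overlap. Dendritic cell markers summed to 13.5, 12.6 and 25.1 CPM in the libraries labelled mutant and 19.2, 15.5 and 34.1 CPM in the wild type, of which 5 of 8 averaged under 1 CPM. Neutrophil markers summed to 476, 556 and 1424 CPM in the libraries labelled mutant and 322, 289.8 and 951 CPM in the wild type, and 4 of them (*S100a8*, *S100a9*, *Ltf* and *Ngp*) rose with the naming term (edgeR). All 4 overlapped between the genotypes, with adjusted p-values of 0.588 to 0.732 on genotype alone (edgeR) and 0.485 to 0.761 in DESeq2. The log2 fold change of *S100a8* ranged from -0.20 to 2.11 with a library left out. Stromal markers summed to 871, 2402 and 3827 CPM in the libraries labelled mutant and 1004, 1063 and 2776 CPM in the wild type, where *Postn* rose with that term (adjusted p 0.0393, against 0.349 on genotype alone, edgeR), and mast cell and basophil markers to 21.9, 11.9 and 12.7 CPM in the libraries labelled mutant and 9.33, 23.0 and 10.4 CPM in the wild type. The part of these cells in the values of the members was not tested.

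*Stat4* has 2 annotated starts, and both promoter windows are shown for their low content of CG, in capitals. The first (chr1:51986898-51987197, + strand) holds 2 and the second (chr1:52007990-52008289, + strand) holds 4, against the median of 7. Neither holds TTCNNNGAA.
First Stat4 promoter: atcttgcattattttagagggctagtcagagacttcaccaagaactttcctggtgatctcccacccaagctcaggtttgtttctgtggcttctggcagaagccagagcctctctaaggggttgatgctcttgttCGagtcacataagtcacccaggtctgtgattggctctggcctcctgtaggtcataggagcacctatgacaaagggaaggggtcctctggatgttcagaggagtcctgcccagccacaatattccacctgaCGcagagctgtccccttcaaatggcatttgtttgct
Second Stat4 promoter: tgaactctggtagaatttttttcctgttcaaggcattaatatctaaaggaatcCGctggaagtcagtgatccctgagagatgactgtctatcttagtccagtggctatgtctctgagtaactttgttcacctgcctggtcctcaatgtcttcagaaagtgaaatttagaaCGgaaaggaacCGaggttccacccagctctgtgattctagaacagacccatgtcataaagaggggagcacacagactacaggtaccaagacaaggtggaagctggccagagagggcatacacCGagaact

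*Stat6*, the factor of interleukin-4 signalling, stood at 237, 199.8 and 236 CPM in the libraries labelled mutant, against 186, 162 and 157 CPM in the wild type. *Stat5b* stood at 72.3, 62.4 and 67.2 CPM in the libraries labelled mutant, against 54.6, 49.7 and 40.4 CPM in the wild type. Both had groups that did not overlap and were called by DESeq2 alone (adjusted p = 0.00902 and 0.0203). In edgeR their log2 fold changes were 0.42 (SE 0.126) and 0.48 (SE 0.136), with adjusted p-values with the naming term of 0.0968 and 0.0589. *Stat5a*, the close paralog and neighbour of *Stat5b* 8626 bases away, averaged 28.9 ± 1.30 CPM in the libraries labelled mutant and 27.9 ± 2.87 CPM in the wild type (SD, n = 3 each), and reads from sequence shared by the 2 paralogs could be split between them. *Stat3*, which serves interleukin-6, interleukin-10 and interleukin-21, stood at 159.7, 141 and 149 CPM in the libraries labelled mutant, against 139, 134 and 112 CPM in the wild type. The groups were next to each other without overlap, with a log2 fold change of 0.23 (SE 0.121) and an adjusted p of 0.378 (edgeR).

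The inhibitors were evenly split and gave no call, with 3 of 6 above 0 and 3 below. *Cish*, a classical target of STAT5, stood at 4.41, 3.46 and 2.61 CPM in the libraries labelled mutant, against 4.55, 9.21 and 4.49 CPM in the wild type. The groups did not overlap, but library 2 lay just below wild-type libraries 1 and 6, and library 4 stood apart. Its log2 fold change was -0.80 (SE 0.423), with an adjusted p of 0.372 (edgeR), and -0.34 without library 4. *Socs2*, another inhibitor induced by STAT5, stood at 16.1, 19.4 and 11.4 CPM in the libraries labelled mutant, against 18.0, 23.5 and 22.4 CPM in the wild type, with library 3 above wild-type library 1. *Socs3*, the inhibitor of gp130 signalling, stood at 11.4, 15.2 and 19.1 CPM in the libraries labelled mutant, against 12.4, 18.5 and 13.9 CPM in the wild type, and *Socs1*, the inhibitor of interferon gamma signalling, at 1.89, 2.45 and 3.05 CPM in the libraries labelled mutant, against 1.75, 1.94 and 1.84 CPM in the wild type. Both overlapped between the genotypes. *Socs6* averaged 105 ± 18.9 CPM in the libraries labelled mutant and 76.0 ± 25.1 CPM in the wild type (SD, n = 3 each). *Pias1*, which binds STAT proteins in the nucleus, averaged 88.8 ± 4.28 CPM in the libraries labelled mutant and 90.5 ± 12.6 CPM in the wild type (SD, n = 3 each). Adjusted p-values of *Socs1*, *Socs2*, *Socs3*, *Socs6* and *Pias1* lay between 0.350 and 0.980 (edgeR).

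The *Cish* window (chr9:107296409-107296708, + strand) is shown for its 2 matches to TTCNNNGAA, in capitals, TTCCTGGAA and TTCTTGGAA. Among member windows, 1 of *Il18r1* also holds 2.
Cish promoter: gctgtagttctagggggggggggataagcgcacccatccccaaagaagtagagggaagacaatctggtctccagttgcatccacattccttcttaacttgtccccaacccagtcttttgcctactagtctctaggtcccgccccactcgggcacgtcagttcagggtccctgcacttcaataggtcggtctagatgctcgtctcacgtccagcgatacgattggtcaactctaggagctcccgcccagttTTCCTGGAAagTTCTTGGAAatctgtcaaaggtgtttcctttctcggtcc

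**Figure D4:**
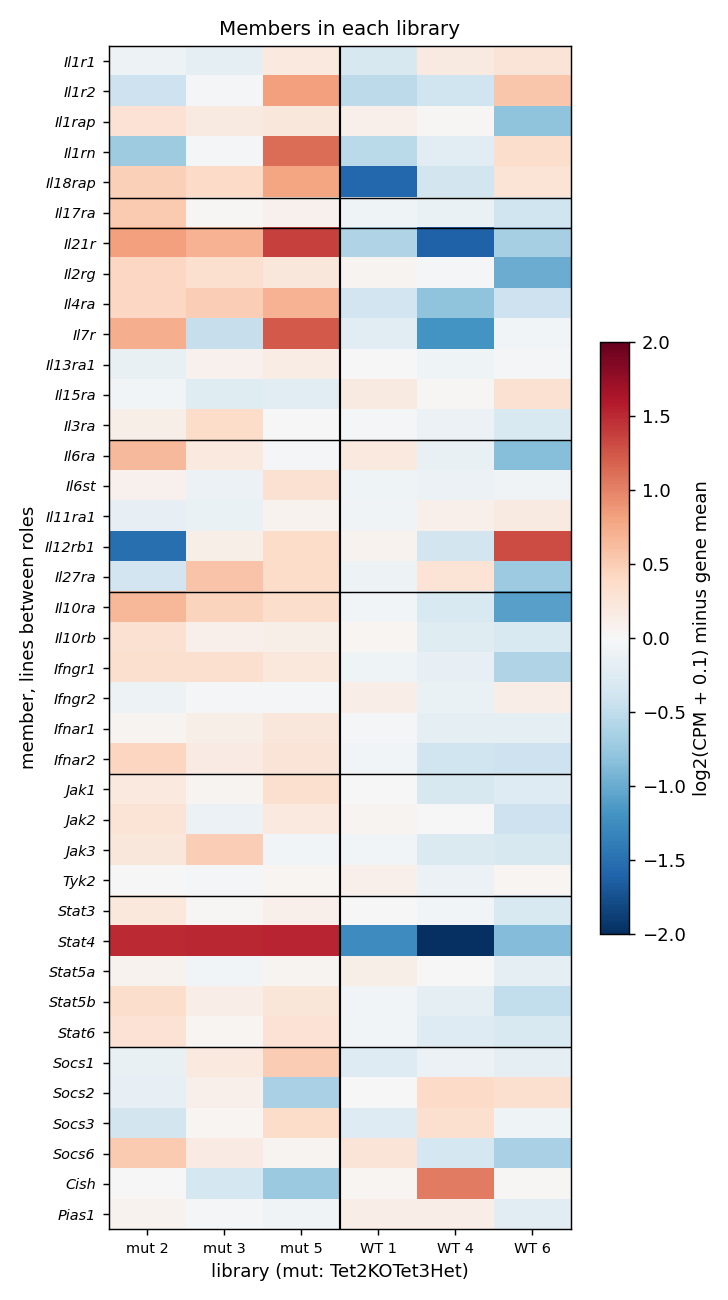
Level of the 39 tested members (rows, by role) in each library (columns, libraries labelled mutant on the left), as log2(CPM + 0.1) around the mean of each gene. Of the 39 members, 13 were highest in library 2, 13 in library 5 and 19 were lowest in library 6.

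Across libraries, 13 members were highest in library 2 and 13 in library 5, where 20.9% and 14.7% of all tested genes had their highest value. Library 3, also labelled mutant, was highest for 3. Wild-type library 6 was lowest for 19 members, against 24.6% of all genes, and wild-type libraries 4 and 1 for 7 and 4. The sign of the difference within libraries 1 to 4 was that between libraries 5 and 6 for 35 members; *Stat5a*, *Socs3* and *Pias1* differed in sign, and *Il1r2* was not in the fit of libraries 1 to 4. The median log2 difference of the members across libraries 1 to 4 was 0.21, against -0.04 over all genes, and that of library 5 over library 6 was 0.49, against 0.00.

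Other genes of these pathways were read from 5 lists. Over all lists, 0 genes passed in edgeR on genotype alone, and 13 passed with the naming term. Of all genes tested, 3.08% were called higher and 5.6% lower with that term. At an unadjusted p under 0.05 on genotype alone, 7.19% of all genes were higher and 12.4% lower (edgeR). The counts of each list stand beside these shares. Among 17 ligand genes tested (15 above 0, median 0.52), 5 were higher at an unadjusted p under 0.05, and *Il16*, which encodes a ligand of CD4, rose with the naming term. *Il27*, counted among the 15 and the 5, reached 1 CPM only in the libraries labelled mutant, so it could enter in that direction alone. It stood at 1.05, 1.22 and 1.04 CPM there, against 0.117, 0.465 and 0.481 CPM in the wild type. *Il16* stood at 68.6, 67.2 and 75.3 CPM in the libraries labelled mutant, against 36.0, 27.8 and 22.4 CPM in the wild type, well apart, with a log2 fold change of 1.30 (SE 0.182) and adjusted p-values of 0.0589 and 0.0163 (edgeR). *Il15*, the next by mean over all 6 libraries, averaged 21.1 ± 6.48 CPM in the libraries labelled mutant and 17.8 ± 5.56 CPM in the wild type (SD, n = 3 each). *Ebi3*, a subunit of interleukin-27, had the higher mean in the libraries labelled mutant; it stood at 26.5, 21.6 and 24.3 CPM in the libraries labelled mutant, against 15.2, 17.9 and 9.94 CPM in the wild type, without overlap. Its adjusted p-values were 0.157 and 0.0655 with the naming term (edgeR) and 0.0438 in DESeq2. Ligands of *Il21r* and *Il4ra* were scarce or not matched. *Il4* had at most 0.713 CPM in any library, and *Il13* and *Il21* matched no symbol among the genes counted.

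Among 20 other cytokine receptors tested (14 above 0, median 0.31), 2 were higher and 0 lower at an unadjusted p under 0.05. *Csf3r*, the receptor for G-CSF, rose with the naming term and 0 fell. It stood at 173, 119 and 139 CPM in the libraries labelled mutant, against 81.3, 65.2 and 56.1 CPM in the wild type, with a log2 fold change of 1.09 (SE 0.195) and adjusted p-values of 0.0768 and 0.0213 (edgeR). The groups lay well apart. The 2 most abundant were chains of the GM-CSF receptor. *Csf2ra* averaged 285 ± 91.9 CPM in the libraries labelled mutant and 356 ± 64.4 CPM in the wild type, and *Csf2rb* 331 ± 48.5 CPM in the libraries labelled mutant and 279 ± 51.7 CPM in the wild type (SD, n = 3 each). *Csf2rb* has a close paralog, *Csf2rb2*, with which its reads could be shared.

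Adaptors of the interleukin-1 and interleukin-17 families split in direction. Of 13 tested (median -0.08), 3 were higher and 3 lower at an unadjusted p under 0.05, and 2 rose and 2 fell with the naming term. *Traf6*, the ubiquitin ligase shared by interleukin-1 receptors and RANK, stood at 51.9, 65.5 and 68.9 CPM in the libraries labelled mutant, against 118, 100.4 and 146 CPM in the wild type. *Traf3ip2*, which encodes the interleukin-17 adaptor ACT1, stood at 8.47, 11.1 and 10.8 CPM in the libraries labelled mutant, against 23.7, 24.9 and 28.6 CPM in the wild type. Neither overlapped, and the log2 fold changes were -0.97 (SE 0.179) and -1.35 (SE 0.169), with adjusted p-values of 0.0165 and 0.0145 with the naming term (edgeR). The 2 that rose with the naming term both encode inhibitors. *Il18bp*, a secreted trap of interleukin-18, stood at 40.1, 28.5 and 49.6 CPM in the libraries labelled mutant, against 18.7, 11.8 and 14.7 CPM in the wild type, and *Irak3*, an inhibitory member of the IRAK kinases, at 37.7, 31.4 and 31.9 CPM in the libraries labelled mutant, against 23.7, 20.6 and 12.7 CPM in the wild type. Their log2 fold changes were 1.40 (SE 0.258) and 0.83 (SE 0.240), with adjusted p-values of 0.0239 and 0.0378 with that term (edgeR). The adaptor gene *Myd88*, not an inhibitor, was also higher without overlap. It stood at 75.8, 66.5 and 79.6 CPM in the libraries labelled mutant, against 60.2, 53.0 and 59.9 CPM in the wild type. Its adjusted p-values were 0.0880 with the naming term (edgeR) and 0.0466 in DESeq2. The most abundant of the list encode an adaptor of the kinase TAK1 and the kinase IRAK1. *Tab2* averaged 209.7 ± 11.7 CPM in the libraries labelled mutant and 269.7 ± 19.5 CPM in the wild type, and *Irak1* 161 ± 16.5 CPM in the libraries labelled mutant and 176 ± 9.82 CPM in the wild type (SD, n = 3 each). *Tab2* was lower without overlap, with a log2 fold change of -0.36 (SE 0.110). Its adjusted p-values were 0.150 on genotype alone and 0.0898 with the naming term (edgeR), and 0.0371 in DESeq2.

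Of 24 negative regulators and remaining JAK-STAT genes (13 above 0, median 0.02), 2 fell and 0 rose with the naming term. They were *Cblb*, a ubiquitin ligase of receptor signalling, at 40.8, 43.8 and 61.7 CPM in the libraries labelled mutant, against 77.9, 70.9 and 119.9 CPM in the wild type, and *Stap2*, an adaptor that binds STAT proteins, at 4.20, 9.58 and 8.86 CPM in the libraries labelled mutant, against 16.4, 14.8 and 26.6 CPM in the wild type (adjusted p = 0.0135 and 0.0491, edgeR with the naming term). Both were lower in every library labelled mutant. At an unadjusted p under 0.05, 4 of the list were higher and 4 lower. The most abundant were phosphatase genes. *Ptpn6* averaged 314 ± 43.7 CPM in the libraries labelled mutant and 343 ± 44.6 CPM in the wild type, and *Ptprc* 455 ± 83.0 CPM in the libraries labelled mutant and 443 ± 78.4 CPM in the wild type (SD, n = 3 each).

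Of 26 genes tested from a list of STAT targets (21 above 0, median 0.43), 10 were higher and 0 lower at an unadjusted p under 0.05, and 5 rose with the naming term. These were the kinase gene *Pim1*, the transcription factor gene *Irf8*, the growth arrest gene *Gadd45g*, and *Chil3* and *Mrc1*, genes induced in macrophages by interleukin-4. *Pim1* stood at 28.1, 20.4 and 27.4 CPM in the libraries labelled mutant, against 12.2, 16.7 and 12.5 CPM in the wild type, and *Mrc1* at 734, 776 and 785 CPM in the libraries labelled mutant, against 477, 302 and 182 CPM in the wild type; neither overlapped, and *Mrc1* is also on the macrophage list above. *Irf8* averaged 178 ± 18.7 CPM in the libraries labelled mutant and 96.8 ± 35.0 CPM in the wild type, *Gadd45g* 21.6 ± 7.12 CPM in the libraries labelled mutant and 8.84 ± 3.75 CPM in the wild type and *Chil3* 117 ± 64.7 CPM in the libraries labelled mutant and 67.4 ± 47.2 CPM in the wild type (SD, n = 3 each). *Chil3* overlapped between the genotypes, with libraries 5 and 6 the highest of each. The same held for the neutrophil markers *S100a8*, *S100a9*, *Ltf* and *Ngp*. *Chil3* was called with the naming term only, with adjusted p-values of 0.527 on genotype alone (edgeR) and 0.383 in DESeq2. Its log2 fold change ranged from 0.24 to 1.57 with a library left out. Adjusted p-values with the naming term were 0.0499, 0.0368, 0.0480, 0.0204 and 0.0384 in the order *Pim1*, *Irf8*, *Gadd45g*, *Chil3* and *Mrc1* (edgeR). The part of interleukin-4 in these values was not tested. *Mcl1*, a survival gene with the highest mean over all 6 libraries in the list, averaged 677 ± 89.7 CPM in the libraries labelled mutant and 641 ± 63.1 CPM in the wild type.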

How the data were processed

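Raw read counts per Ensembl gene, not normalized, were deposited by the authors for 6 libraries. The submitters' processing notes name mm10, SAMtools 0.1.19, Bowtie2 2.2.3 and TopHat2 2.0.13; per the labels' protocols, stranded mRNA libraries were read from 1 end over 75 bases. Neither the counting program nor its strand setting is given in the sources used here; reads from antisense overlaps may therefore be shared. Of 23264 rows, 60 repeats were dropped. Column names gave the genotype only. No 2 libraries matched within sampling noise (lowest ratio of chi-square to degrees of freedom 27.7); p-values measure the spread between libraries, which may share an animal or culture.

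Counts were scaled by TMM and tested with edgeR 4.0.16 (quasi-likelihood; R 4.3.3, limma 3.58.1) after filterByExpr left 14040 genes, with Benjamini-Hochberg adjustment over all of them. The fit was also run on simulated counts in which all genes were given the same biological variation. That setting is simpler than these data, and no result here draws on that run. SE is the log2 fold change over the root of F. CPM is TMM-scaled; RPKM divides it by merged exon length (GENCODE M21). DESeq2 1.42.0, other filters and scaling, the naming term and left-out libraries were alternatives. The naming split was taken from column names. Members, lists and alternatives were chosen with earlier results of these data known, and members were named by a rule covering all 40. Of each list, genes past the threshold in either fit and the 2 most abundant were named. Besides these, genes flanking *Il4ra* and *Il21r*, *Ebi3*, *Il27*, *Myd88*, cell type markers and low-count genes were chosen after their values were seen.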

Additional observations from a re-analysis of the deposited data

How the results depend on the processing

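Of 39 members, 0 rose in edgeR on genotype alone, 6 with the naming term, 9 in DESeq2 and 1 (*Il4ra*) with no filter on low counts; 0 rose with DESeq2 size factors, a filter of 1 CPM in 3 columns, within libraries 1 to 4 or with any 1 library left out, and 0 fell under each of these settings. Of the other pathway genes, 0 passed, against 13 with the naming term, 19 in DESeq2 and 2 with no filter. Over all genes 10 passed, against 1219 with the naming term, 1426 in DESeq2, 81 with no filter, 1 within libraries 1 to 4 and 0 to 3 with a library left out. Values near 0 changed sign. *Tyk2* was 0.0199 with DESeq2 size factors and 0.0212 in DESeq2, *Pias1* 0.0075 and 0.0081, and within libraries 1 to 4 *Stat5a* was -0.0361, *Socs3* -0.2196 and *Ptprc* -0.1015. With a library left out, log2 fold changes ranged from -0.2504 to 0.0349 for *Il1r1*, -0.21 to 0.76 for *Il1r2*, -0.26 to 0.78 for *Il1rn*, -0.0057 to 0.18 for *Il13ra1*, -1.0261 to 0.0259 for *Il12rb1*, -0.0426 to 0.0365 for *Tyk2*, -0.0117 to 0.1187 for *Stat5a*, -0.17 to 0.24 for *Socs3*, -0.1262 to 0.0692 for *Pias1* and -0.0732 to 0.1677 for *Ptprc*. They ranged from 1.65 to 2.06 for *Il21r*, 0.96 to 1.15 for *Il4ra*, 2.76 to 3.62 for *Stat4*, 0.67 to 1.13 for *Il10ra*, 0.42 to 0.65 for *Ifngr1* and 0.52 to 0.69 for *Ifnar2*. The cause of these changes was not tested. No paired analysis was possible because the columns carry no replicate number. Biological variation (edgeR's common coefficient) came to 40.9%, or 23.5% once the naming term was added. *Stat4*, *Il27ra*, *Il1r2* and *Socs1* are limited by low counts.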
